A study of Mus musculus with 8 samples.

Results

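Grhl1, Grhl2, Grhl3, Ovol1, Klf4, Trp63, Zfp750, Gata3 and Cebpa encode transcription factors of the epidermis, and their levels are described here in mouse dorsal skin with and without imiquimod. Members were taken by symbol: a probe set counted if the platform annotation gave it a member symbol and no other. All 9 genes were measured, by 10 probe sets, among 22180 genes in all. Gata3 had 2 such probe sets and the brighter one represents it. Levels are log2 values, so a difference of 1 unit is a doubling, and levels of different genes are not set against each other because probe sets differ in brightness.

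The arrays came from male mice, with 1 array for each of 8 labels. KO arrays carry the strain B6.Cg-Il22ra1tm1.1Koll/J, an allele of the gene for the IL-22 receptor alpha chain, and WT arrays carry C57BL/6. The labels form 4 pairs that differ in imiquimod cream (IMQ) alone: KO_IMQ_Allo and KO_Allo, whose labels name the peptide alloferon; KO_IMQ_B and KO_CTRL-B; KO_IMQ and KO_CTRL; and WT_IMQ and WT_CTRL. They are called the KO Allo, KO B, KO plain and WT pairs. IMQ meant 83.3 mg of 5% cream each day from day 1 to day 7. A second cream, which did or did not hold alloferon, is stated at 6 hours after IMQ. It is stated for the labels without IMQ as well. Each group is stated to have had 4 mice; the age of the mice, how many contributed to an array, what the letter B marks and in which cells the receptor allele is altered are not given in the sources used here. With IMQ, Il22ra1 itself read 9.40, 8.91 and 8.88 on KO_IMQ_Allo, KO_IMQ_B and KO_IMQ, against 8.64 on WT_IMQ. Without IMQ it read 8.92, 8.59 and 8.91 on KO_Allo, KO_CTRL-B and KO_CTRL, against 8.23 on WT_CTRL. Every KO array thus read above the WT array of the same IMQ state, and Il22ra1 was not lower under the KO label. Whether its probe set lies outside the altered part was not tested, and directions between KO and WT rest on the labels.

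The epidermis renews itself as keratinocytes leave the basal layer, stop dividing and build the cornified envelope and its lipids. p63, encoded by Trp63, keeps the identity of basal keratinocytes and opens the programme of stratification; ZNF750 (Zfp750 in mouse) and KLF4 act later, in the switch to terminal differentiation, and the grainyhead-like factors GRHL1, GRHL2 and GRHL3 control barrier, junction and wound repair genes. OVOL1 restrains keratinocyte proliferation, GATA3 directs the inner root sheath of the hair follicle and barrier lipid synthesis, and C/EBP alpha, encoded by Cebpa, limits proliferation as cells leave the basal layer. Several are not restricted to keratinocytes: GATA3 also specifies T helper cells and innate lymphoid cells, C/EBP alpha acts in adipocytes and myeloid cells, and KLF4 in endothelium and monocytes.

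The promoters of the 3 members that changed with IMQ are printed because these genes moved on the same arrays, 2 upward and 1 downward, and KLF4, one of the members, binds CACCC-type sequences. Each runs from 250 bases before to 50 bases after a RefSeq start on GRCm38.p6, 5′ to 3′ on the strand of the gene, with CACCC on either strand in capitals; neighbouring matches run together.
Grhl3, chr4:135573583-135573882, minus strand: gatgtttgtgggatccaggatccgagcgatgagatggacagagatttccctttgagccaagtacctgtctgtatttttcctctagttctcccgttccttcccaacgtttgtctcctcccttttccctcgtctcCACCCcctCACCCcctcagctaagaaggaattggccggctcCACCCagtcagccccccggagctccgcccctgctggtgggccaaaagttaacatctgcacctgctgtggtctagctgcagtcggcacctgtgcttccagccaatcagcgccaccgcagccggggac
Klf4, chr4:55532426-55532725, minus strand: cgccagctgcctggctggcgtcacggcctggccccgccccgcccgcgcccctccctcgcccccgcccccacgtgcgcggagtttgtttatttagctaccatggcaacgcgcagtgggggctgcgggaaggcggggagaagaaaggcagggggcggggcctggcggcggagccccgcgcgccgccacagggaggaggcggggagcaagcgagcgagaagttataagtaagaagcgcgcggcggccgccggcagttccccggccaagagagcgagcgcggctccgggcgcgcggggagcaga
Gata3, chr2:9878551-9878850, minus strand: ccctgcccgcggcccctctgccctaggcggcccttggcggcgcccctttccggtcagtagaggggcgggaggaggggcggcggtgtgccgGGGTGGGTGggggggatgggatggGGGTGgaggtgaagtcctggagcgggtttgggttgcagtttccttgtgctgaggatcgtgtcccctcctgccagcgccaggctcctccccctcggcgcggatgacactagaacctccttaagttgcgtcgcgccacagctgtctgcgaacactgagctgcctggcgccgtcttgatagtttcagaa
CACCC matched 3 times in the Grhl3 window, 3 times in the Gata3 window and 0 times in the Klf4 window, and 57.5% of 32851 mouse promoters of this length held it. The grainyhead-type AACNNGTT, the AP-1-type TGANTCA, the STAT-type TTCNNNGAA and the GATA-type NGATAA were searched on both strands and had 0 matches in these 3 windows; they were present in 4.20%, 7.81%, 8.30% and 25.3% of all promoters. The GATA-type letters ask for an A after GATA, so the GATA followed by G near the end of the Gata3 window was not counted. The C/EBP-type TTNCNNAA, held by 40.7% of promoters, matched once in the Gata3 window and not in the other 2. RefSeq windows were also searched for Cebpa, where CACCC matched 2 times, and for Grhl1, where CACCC matched 2 times in 1 of 2 windows and the C/EBP-type sequence once in the other. GC content was 58.3% for Grhl3, 74.3% for Klf4 and 67.3% for Gata3, against a median of 52.7% over all promoters.

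IMQ was first compared with no IMQ across all 4 pairs. Grhl3 and Klf4 rose and Gata3 fell, which is 2 members up and 1 down of 9, against 1.9% of all genes up and 1.19% down (3.09% in either direction). All 9 members had mean levels above the median of all genes, 6.06, and among the 11090 genes above it 5.06% were called. The other 6 members did not pass. The median difference of the members was 0.13 log2 units, against -0.01 over all genes. Members were chosen with earlier results of these data known, so such shares and medians, here and below, do not test the members. The p-values, from limma with Benjamini-Hochberg adjustment over all genes, measure the spread of the IMQ difference among pairs of arrays, which may be partly technical. The pairs also differ in genotype, alloferon and the letter B, so they are not replicates of 1 condition and the spread may hold such differences.

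Grhl3, required in the mouse for barrier formation and wound closure, read 10.09, 9.80, 10.57 and 9.80 on KO_IMQ_Allo, KO_IMQ_B, KO_IMQ and WT_IMQ, against 8.85, 8.79, 9.33 and 8.83 on KO_Allo, KO_CTRL-B, KO_CTRL and WT_CTRL. Every array with IMQ lay above every array without it, by at least 0.46, and the KO plain pair was the highest in both states. It rose by 1.11 ± 0.10 log2 units (SE over 4 pairs, adjusted p = 0.0124), or 2.16-fold. The 4 pair differences lay between 0.96 in the WT pair and 1.24 in the KO plain pair, while the levels without IMQ differed by up to 0.55. The call was lost without the WT pair (1.16, adjusted p = 0.0775) or the KO B pair (1.14, adjusted p = 0.0714) and held without either of the other pairs. Those losses are not particular to Grhl3: 0 of all genes passed without the WT pair and 2 without the KO B pair.

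Klf4, needed in the mouse for the permeability barrier, read 9.83, 9.83, 9.81 and 9.60 on the IMQ arrays of the KO Allo, KO B, KO plain and WT pairs, against 9.24, 9.21, 9.37 and 9.21 on the arrays without IMQ. The groups did not overlap, with a gap of 0.23, and WT_IMQ was the lowest of the IMQ arrays. It rose by 0.51 ± 0.09 log2 units, or 1.42-fold (adjusted p = 0.0419). The call was close to the threshold. Leaving out any of the 4 pairs ended it (adjusted p between 0.0649 and 0.191), as did a repeated quantile normalization (0.46, adjusted p = 0.0515). Of all genes, 0, 2, 260 and 1307 passed without the WT, KO B, KO plain and KO Allo pairs.

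Gata3 moved the other way. It read 8.80, 8.50, 8.46 and 8.21 on KO_IMQ_Allo, KO_IMQ_B, KO_IMQ and WT_IMQ, against 9.22, 9.32, 9.32 and 9.37 on KO_Allo, KO_CTRL-B, KO_CTRL and WT_CTRL. The arrays without IMQ lay within 0.14 of each other and all 4 IMQ arrays lay below them, by at least 0.42. It fell by 0.82 on the log2 scale (SE 0.13, adjusted p = 0.0320), a 1.76-fold difference, and the fall was smallest in the KO Allo pair (-0.42) and largest in the WT pair (-1.16). The call was lost without the WT, KO plain or KO B pair (adjusted p between 0.106 and 0.156), where 0, 260 and 2 of all genes passed. The dimmer Gata3 probe set read 6.47, 6.33, 6.29 and 5.95 with IMQ, against 6.61, 6.52, 6.64 and 6.49 without it, in the same order of arms. It was thus also lower in 4 of 4 pairs, by a smaller amount (mean -0.30), and with the mean of both probe sets Gata3 measured -0.56 ± 0.11 and missed the threshold (adjusted p = 0.0556).

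**Figure D1:**
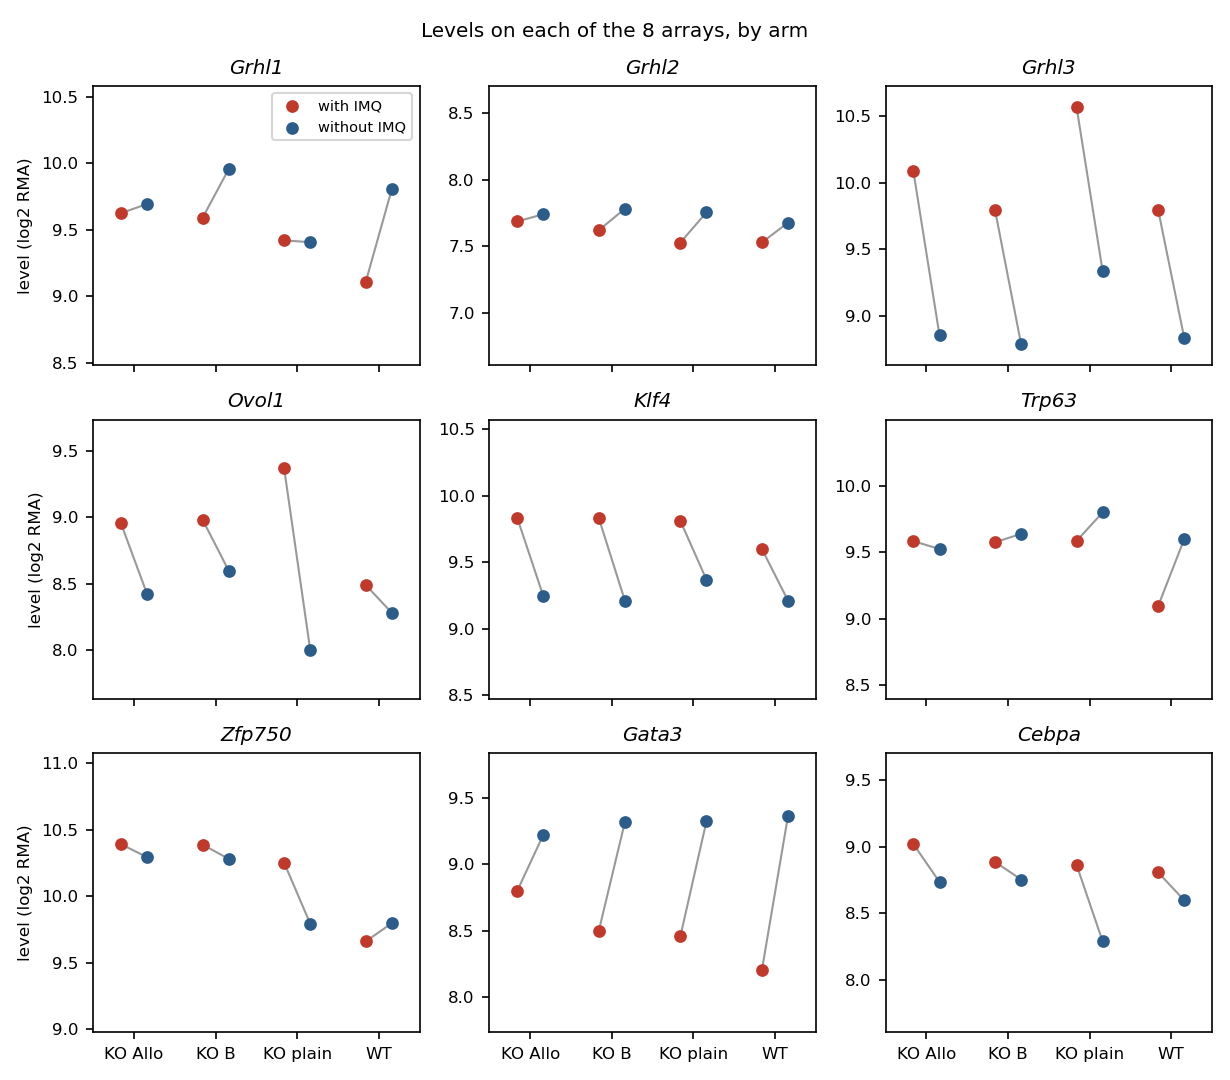
Level of each of the 9 genes (y axis, log2 RMA value; every panel spans the same number of log2 units) on each of the 8 arrays, by arm (x axis). Red points are arrays with IMQ, blue points arrays without, and a line joins each pair. Grhl3, Klf4 and Cebpa are higher and Gata3 lower on every IMQ array than on any array without IMQ, while Zfp750, Trp63 and Grhl1 differ in direction between pairs.

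Ovol1 read 8.95, 8.98, 9.37 and 8.49 with IMQ in the KO Allo, KO B, KO plain and WT pairs, against 8.42, 8.60, 8.002 and 8.28 without it. Its difference was positive in 4 of 4 pairs but ranged from 0.21 in the WT pair to 1.37 in the KO plain pair, whose array without IMQ was the lowest of all 8 and whose IMQ array was the highest. The mean was 0.62 ± 0.19 and did not pass (adjusted p = 0.145). Cebpa read 9.02, 8.89, 8.86 and 8.81 with IMQ, against 8.73, 8.75, 8.29 and 8.60 without it, in the same order. All IMQ arrays lay above all arrays without IMQ, by a gap of 0.05, yet the mean of 0.30 ± 0.11 did not pass (adjusted p = 0.196).

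Zfp750 read 10.39, 10.39, 10.25 and 9.66 with IMQ, against 10.29, 10.28, 9.79 and 9.80 without it, again in the order KO Allo, KO B, KO plain and WT. WT_IMQ was the lowest of the 8 arrays, KO_CTRL was as low as WT_CTRL, and the pairs disagreed in sign: 0.10, 0.11 and 0.46 in the KO pairs and -0.14 in the WT pair (mean 0.13 ± 0.12, adjusted p = 0.613). Trp63 read 9.58, 9.58, 9.59 and 9.10 with IMQ, against 9.53, 9.64, 9.80 and 9.60 without it. The KO arrays with IMQ were nearly equal and WT_IMQ stood 0.48 below the lowest of them; the mean difference was -0.18 ± 0.12 (adjusted p = 0.469). The probe set does not tell the p63 isoforms apart.

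The other grainyhead-like genes did not share the course of Grhl3. Grhl1, a regulator of desmosomal cadherin genes in mouse skin, read 9.62, 9.59, 9.42 and 9.11 with IMQ, against 9.69, 9.95, 9.41 and 9.81 without it. Its pair differences ran from -0.70 in the WT pair to 0.01 in the KO plain pair (mean -0.28 ± 0.14, adjusted p = 0.335), and the groups overlapped. Grhl2, a regulator of epithelial junction genes, read 7.69, 7.62, 7.53 and 7.53 with IMQ, against 7.74, 7.78, 7.76 and 7.68 without it. It was lower in 4 of 4 pairs but by little (mean -0.15 ± 0.09, adjusted p = 0.424), and the groups overlapped by about 0.01.

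By direction, 4 members were higher in 4 of 4 pairs (Grhl3, Ovol1, Klf4 and Cebpa), as were 12.6% of all genes, and 2 were lower (Grhl2 and Gata3), as were 14.3%. Without overlap between the groups, 3 members were higher with IMQ (Grhl3, Klf4 and Cebpa) and 1 was lower (Gata3), against 5.96% and 5.04% of all genes.

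**Figure D2:**
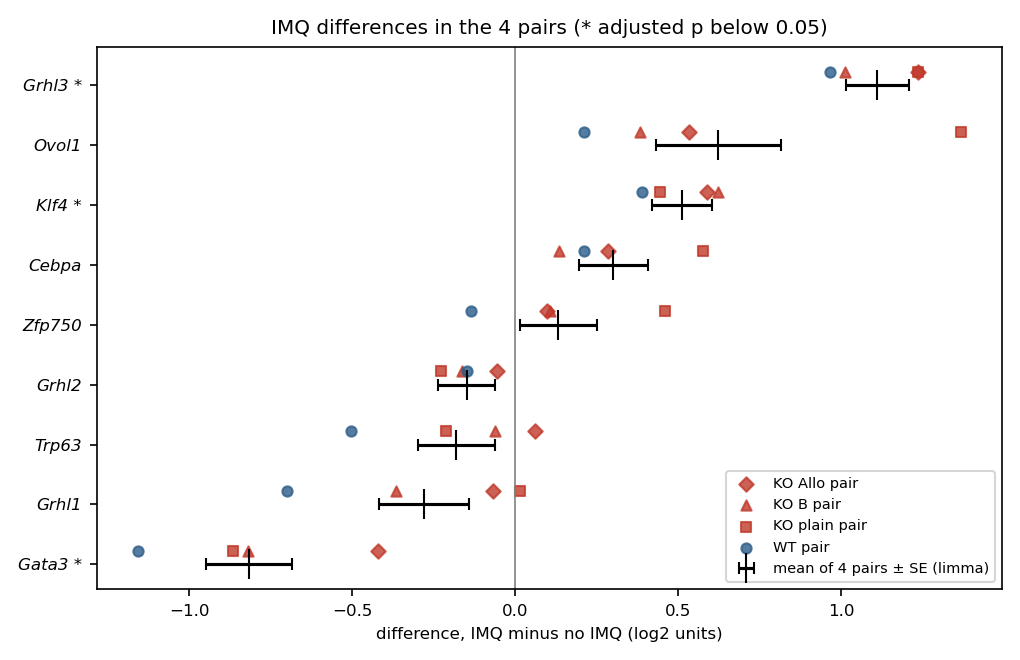
Difference between the IMQ array and the array without IMQ (x axis, log2 units) for each gene (y axis). Coloured symbols are the 4 pairs, the black tick and bar the mean of 4 pairs ± SE from limma, and an asterisk marks an adjusted p below 0.05. Grhl3 sits highest with pairs between 0.96 and 1.24, Gata3 lowest with pairs between -1.16 and -0.42, and the Ovol1 pairs spread from 0.21 to 1.37.

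Cell content of the skin pieces moved with IMQ as well. Of 18 measured hair follicle markers 15 fell, with mean levels of 5.33 to 7.99 on the IMQ arrays and 7.36 to 10.18 on the others. By array the hair follicle level was 6.79, 7.99, 5.33 and 6.35 on KO_IMQ_Allo, KO_IMQ_B, KO_IMQ and WT_IMQ, against 9.04, 10.18, 7.36 and 9.70 on KO_Allo, KO_CTRL-B, KO_CTRL and WT_CTRL, and it was lower with IMQ in every pair, as Gata3 was. With it as a covariate the IMQ difference of Gata3 was -0.00 ± 0.59, against -0.82 ± 0.13 without it, and 0 of all genes passed in limma (897 at an unadjusted p under 0.05). With an SE of 0.59, the fit with this covariate cannot tell follicle content and IMQ apart for Gata3. The follicle levels with and without IMQ overlapped between pairs. KO_CTRL of the KO plain pair, at 7.36, lay below KO_IMQ_B of the KO B pair, at 7.99. Gata3 read 9.32 and 8.50 on these arrays. Within both pairs the follicle level and Gata3 were lower with IMQ. Across the arrays without IMQ the follicle level ran from 7.36 to 10.18 and Gata3 from 9.22 to 9.37. In whole skin, fewer cells of a type and less RNA per cell cannot be told apart.

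Keratinocyte markers, among which 0 of 11 passed, averaged 10.76 to 11.06 with IMQ and 10.46 to 10.92 without it. With that level as a covariate, Grhl3 measured 1.18 ± 0.23 and Klf4 0.59 ± 0.22. Without the covariate they were 1.11 ± 0.10 and 0.51 ± 0.09; with it neither passed (adjusted p = 0.595 and 0.743). As with the hair follicle level, 0 of all genes passed in that fit (1417 at an unadjusted p under 0.05).

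Markers of other cells that express members were read beside them. Among T cell markers 0 of 9 passed, with mean levels of 5.63 to 6.12 with IMQ and 5.34 to 5.60 without it. Macrophage markers rose in 4 of 10 (8.46 to 9.21 with IMQ, 7.79 to 8.29 without), and 0 of 8 endothelial markers passed (7.05 to 7.71 with IMQ, 6.94 to 7.23 without). Adipocyte markers fell in 1 of 10 (7.40 to 8.31 with IMQ, 7.60 to 9.09 without), sebaceous markers in 3 of 10 (7.999 to 9.19 with IMQ, 8.67 to 9.37 without) and skeletal muscle markers in 3 of 12 (7.94 to 8.81 with IMQ, 8.53 to 10.90 without). With the skeletal muscle level as a covariate Grhl3 measured 1.12 ± 0.23, Klf4 0.68 ± 0.20 and Gata3 -0.44 ± 0.26. Ovol1 measured 0.15 ± 0.40 and Cebpa 0.09 ± 0.23, and these had not passed without the covariate either. None of them passed with it (adjusted p = 0.644 to 0.988), and 0 of all genes did (1432 at an unadjusted p under 0.05 in limma). The part of the other 5 cell types in the member values was not tested.

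**Figure D3:**
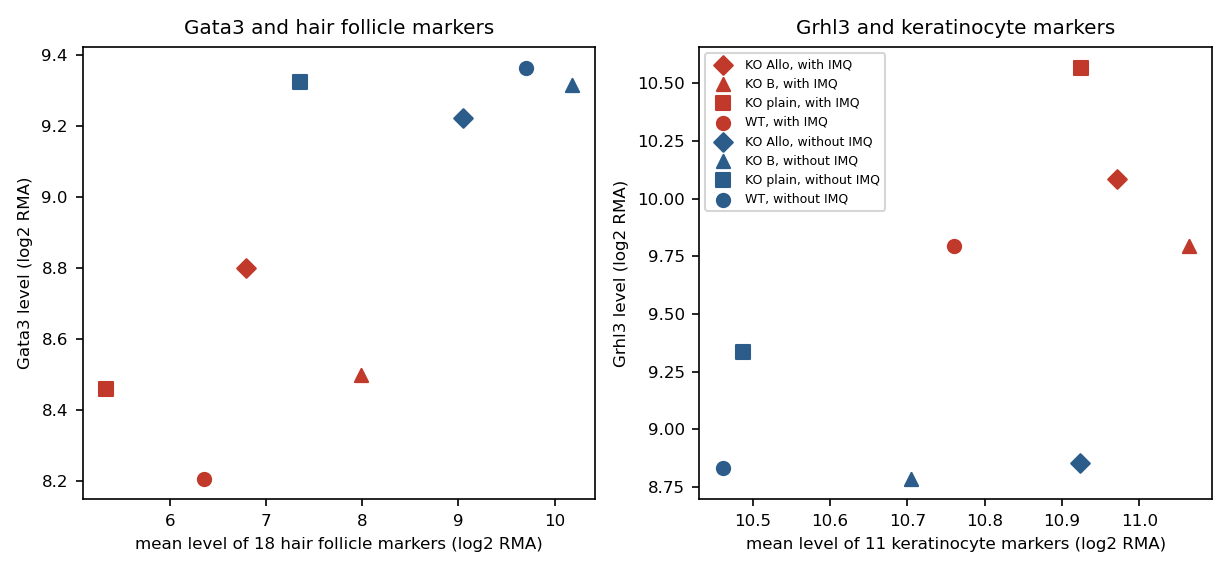
Left, Gata3 level (y axis) against the mean level of 18 hair follicle markers (x axis); right, Grhl3 level against the mean level of 11 keratinocyte markers, all as log2 RMA values on 8 arrays. Red is with IMQ, blue without, and the symbol gives the arm. Gata3 lies between 8.21 and 8.80 with IMQ and between 9.22 and 9.37 without it, and Grhl3 between 9.80 and 10.57 with IMQ and between 8.79 and 9.33 without it.

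The same question was put to each genotype. Over the 3 KO pairs Grhl3 measured 1.16 ± 0.11 log2 units (adjusted p = 0.0775), Klf4 0.55 ± 0.11 (adjusted p = 0.147), Gata3 -0.70 ± 0.13 (adjusted p = 0.142) and Ovol1 0.76 ± 0.21 (adjusted p = 0.231). No member passed, nor did any gene (0% called, 3093 genes with an unadjusted p under 0.05 in limma). In the WT pair, where the spread is borrowed from the KO pairs, the largest member differences were -1.16 ± 0.23 for Gata3, 0.96 ± 0.19 for Grhl3 (adjusted p = 0.295 each) and -0.70 ± 0.21 for Grhl1 (adjusted p = 0.400). Here too 0% of genes were called, with 2396 at an unadjusted p under 0.05.

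Whether IMQ acted differently in KO and WT skin was tested as the difference of the differences. In limma 0 members and 0% of all genes differed (914 genes with an unadjusted p under 0.05). Over all genes the KO response minus the WT response had a median of 0.02, and the share of positive estimates was not counted. The estimates were positive for all 9 members in this fit, between 0.001 ± 0.21 for Grhl2 and 0.56 ± 0.25 for Grhl1. The sign was not stable for Grhl2, at -0.043 after a repeated quantile normalization, or for Cebpa with 1 array left out. Ovol1 followed with 0.55 ± 0.42, Gata3 with 0.46 ± 0.27, Trp63 with 0.43 ± 0.23 and Zfp750 with 0.36 ± 0.25, and the adjusted p was 0.983 to 1.000 over the members. These share the 1 WT pair, so they are not separate observations, and errors of this size leave differences of 0.5 log2 units undecided.

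Under IMQ the arrays labelled KO read higher than the array labelled WT for most members. All 3 KO arrays lay above WT_IMQ for 7 of 9 members (Grhl1, Ovol1, Klf4, Trp63, Zfp750, Gata3 and Cebpa) and below it for 0, where 30.4% and 23.2% of all genes did. For the other 2 members, KO_IMQ_B (Grhl3) and KO_IMQ (Grhl2) were within 0.001 of WT_IMQ. The KO mean exceeded WT_IMQ by 0.68 log2 units for Zfp750, 0.61 for Ovol1, 0.49 for Trp63, 0.44 for Grhl1, 0.38 for Gata3, 0.35 for Grhl3, 0.23 for Klf4, 0.12 for Cebpa and 0.08 for Grhl2. The median of 0.38 compares with 0.02 over all genes.

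Without IMQ the difference was smaller. All 3 KO arrays lay above WT_CTRL for 2 members (Grhl2 and Klf4; 25.3% of all genes) and below it for 1 (Gata3; 21.4%), and the member median was 0.06, against 0.01 over all genes. Zfp750 was the furthest apart, with a KO mean of 10.12, against 9.80 on WT_CTRL, but KO_CTRL alone was at 9.79. With 1 WT array per IMQ state these comparisons have no replicate check.

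Cell markers differed between the same arrays. Under IMQ all 3 KO arrays lay above WT_IMQ for 7 of 11 keratinocyte markers and 8 of 10 sebaceous markers, and below it for 8 of 8 endothelial and 9 of 10 adipocyte markers. They lay above it for 2 and below it for 0 of 18 hair follicle markers, and for 2 and 2 of 9 T cell markers. For macrophage markers this was 0 and 5 of 10, and for skeletal muscle markers 3 and 6 of 12. Without IMQ all 3 KO arrays lay above WT_CTRL for 6 of 11 keratinocyte and 7 of 10 sebaceous markers. They then lay above it for 4 and below it for 2 of 8 endothelial markers, and below it for 3 of 10 adipocyte markers. For T cell markers this was 6 and 0 of 9, and for macrophage markers 1 and 1 of 10. It was 0 and 0 of 18 for hair follicle markers (median difference -0.85) and 0 and 1 of 12 for skeletal muscle markers (median -1.22). Of all genes 30.4% lay above and 23.2% below with IMQ, and 25.3% and 21.4% without it. The keratinocyte level was 10.92 to 11.06 on the KO arrays with IMQ, against 10.76 on WT_IMQ. Its part in the member differences was not tested.

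**Figure D4:**
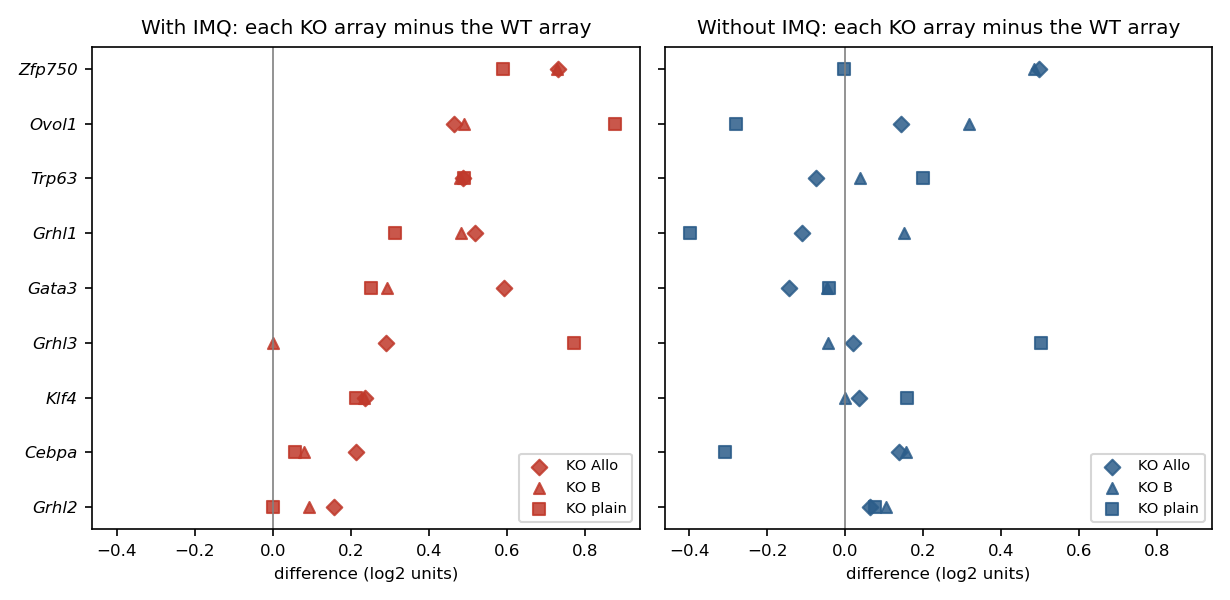
Level on each KO array minus the level on the WT array of the same IMQ state (x axis, log2 units) for each gene (y axis), with IMQ on the left and without on the right. Symbols give the KO arm. With IMQ, 7 of 9 genes have all 3 KO arrays above WT, and without IMQ 2 of 9 do.

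Alloferon can be read from 1 array with IMQ and 1 without. Under IMQ, KO_IMQ_Allo lay above both KO_IMQ and KO_IMQ_B for 6 members (Grhl1, Grhl2, Klf4, Zfp750, Gata3 and Cebpa; 36.2% of all genes) and below both for Ovol1 (35.3% of all genes). The largest of these differences was that of Gata3, at 8.80, against 8.50 and 8.46 on KO_IMQ_B and KO_IMQ, which differed from each other by 0.04. It exceeded the mean of both by 0.32. Grhl3 on KO_IMQ_Allo lay between the other arrays, and Trp63 was within 0.01 of their mean.

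Without IMQ, KO_Allo lay above both KO_CTRL and KO_CTRL-B for Zfp750 (32.4% of all genes) and below both for Grhl2, Trp63 and Gata3 (30.7%). Zfp750 exceeded the higher of them by about 0.01, and Gata3 and Trp63 lay 0.10 and 0.11 below the lower. KO_CTRL and KO_CTRL-B themselves differed by -0.60 for Ovol1, -0.55 for Grhl1, 0.55 for Grhl3, -0.49 for Zfp750 and -0.47 for Cebpa (KO_CTRL minus KO_CTRL-B). In size these exceed the largest alloferon difference of a member from the mean of the plain and B arrays, 0.32 for Gata3 with IMQ. For Gata3 itself KO_CTRL and KO_CTRL-B differed by 0.006.

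Among 33 other measured transcription factors of the epidermis, 3 rose and 3 fell over the 4 pairs. Ehf, an ETS factor of epithelia, read 8.94, 8.73, 9.17 and 8.28 with IMQ in the KO Allo, KO B, KO plain and WT pairs, against 7.37, 7.08, 6.29 and 6.02 without it. It rose by 2.09 ± 0.22 log2 units (adjusted p = 0.0157), more than any member. Ppard, a nuclear receptor for fatty acids, rose by 0.94 ± 0.18 (adjusted p = 0.0461), and Cebpb, which acts with Cebpa in keratinocytes, by 0.56 ± 0.11 (adjusted p = 0.0472). The homeobox gene Dlx3 fell by 1.11 (SE 0.14, adjusted p = 0.0207), the follicle stem cell factor gene Sox9 by 0.70 (SE 0.12, adjusted p = 0.0386) and the vitamin D receptor gene Vdr by 0.47 (SE 0.09, adjusted p = 0.0450). Dlx3 and Sox9 are both expressed in hair follicles, whose markers fell on these arrays, and that part was not tested.

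Genes of the cornified layer, where several members act, came next. Of 22 cornification and barrier genes 8 rose and 0 fell (list median 0.72, against -0.01 over all genes): Alox12b, Cers3 and Abca12 of barrier lipid synthesis and transport, Casp14, Asprv1 and Tgm5 of envelope and filaggrin processing, and the adhesion genes Dsc1 and Cdsn. Alox12b rose by 1.37 ± 0.10 (adjusted p = 0.0121) and Casp14 by 1.33 ± 0.20 (adjusted p = 0.0286). The transglutaminase gene Tgm3 measured 2.06 ± 0.47 and Flg2 -1.89 ± 0.38, and neither passed (adjusted p = 0.0700 and 0.0529). Tgm1, a known GRHL3 target, measured 0.88 ± 0.21 and was higher in 4 of 4 pairs without passing (adjusted p = 0.0824). It is named as such a target and not by the size of its difference, and a link to Grhl3 was not tested.

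Of 12 basal genes associated with p63, 0 rose and 1 fell, the growth factor receptor gene Fgfr2 (-0.58 ± 0.11, adjusted p = 0.0483), and the list median was 0.01. Krt14, the basal keratin that also stands among the keratinocyte markers, measured 1.15 ± 0.25 (adjusted p = 0.0649), with 0.09 in the KO Allo pair and 1.36 to 1.62 in the others. Fras1 and Dst measured -0.43 and -0.35. Of 10 genes of the Notch pathway, which drives basal cells into differentiation, 0 rose and 0 fell (median -0.11). Notch1 came nearest at -0.61 ± 0.13 (adjusted p = 0.0603), and Jag1, Jag2 and Hes1 measured -0.36, -0.34 and -0.25. The counts of these lists rest on few pairs: without the WT pair or the KO B pair 0 genes of the 4 lists passed, and without the KO Allo pair 11 cornification genes rose and 2 fell.

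**Figure D5:**
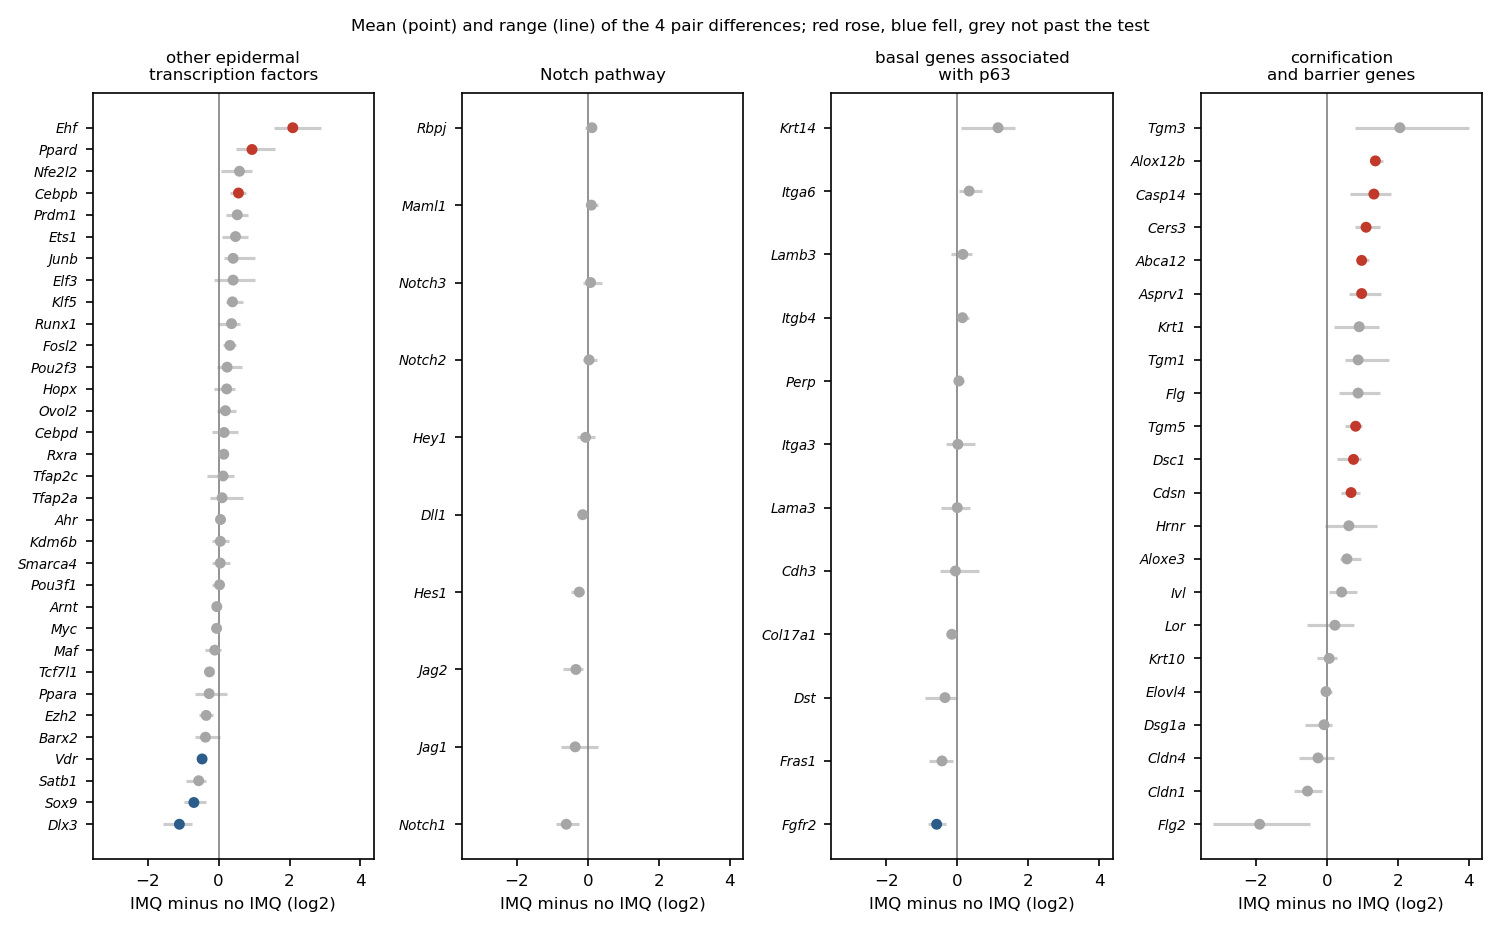
Mean (points) and range (lines) of the 4 pair differences, IMQ minus no IMQ in log2 units (x axis), for the genes of 4 lists (y axis). Red points rose, blue points fell and grey points did not pass the adjusted threshold in limma. Ehf at 2.09 and Alox12b at 1.37 are among the genes that rose, and the medians of the basal and Notch genes are 0.01 and -0.11.

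Grhl3 lies on the same chromosome as the targeted gene, and in the RefSeq order 4 genes stand between them, of which Ifnlr1, a receptor gene for interferon lambda, is the 1 that codes for a protein. With IMQ the KO mean of Grhl3 was 10.15, against 9.80 on WT_IMQ, and without IMQ it was 8.99, against 8.83 on WT_CTRL. The KO arrays did not share this difference. In the order KO Allo, KO B and KO plain they read 10.09, 9.80 and 10.57 with IMQ, and 8.85, 8.79 and 9.33 without it. KO_IMQ_B was thus level with WT_IMQ, and KO_CTRL-B lay below WT_CTRL. Linkage to the altered allele and the genotype cannot be told apart.

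Genes whose course over the 8 arrays was most like that of each member were sought by Pearson's r among genes above the median level (clone-named, olfactory receptor and microRNA genes left out), as a description, since the 8 arrays share the IMQ contrast and come from 1 joint normalization. For Grhl3 they were Gpld1 and Grem1 (r = 0.983 each), for Klf4 Chmp1b and Sh3bp1 (0.972 each) and for Gata3 Ralgps2 and Pex11a (0.990 and 0.985). Those of Ovol1 were Srd5a3 and Ckmt1 (0.978 and 0.976), and those of Cebpa were Snord42b and the gasdermin gene Gsdma (0.990 and 0.984). Zfp750 was closest to Ddx51 and Osbpl7 (0.987 and 0.983) and Trp63 to Gigyf2 and Zkscan7 (0.961 and 0.953). Grhl1 was closest to Lzts1 and St14 (0.979 and 0.976) and Grhl2 to Pdzd2 and Mllt10 (0.983 and 0.981).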

How the data were processed

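Total RNA of dorsal skin (100 ng per sample) was hybridised to Affymetrix arrays. The deposited values are log2 expression values that the authors made by RMA; the submitters' processing notes name Affymetrix Power Tools and, without a role, R 3.3.2. RMA puts all arrays on 1 distribution and compresses differences of dim genes; array medians differed by 0.05 at most. The number of arrays limits the precision. No arrays held identical values. Of 41345 probe sets, 23521 had 1 gene symbol, 1814 several and 16010 none; the brightest probe set represented a gene, and no filter was used. Entrez identifiers of 23328 matched the RefSeq table of GRCm38.p6.

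Differences were tested with limma 3.58.1 in R 4.3.3 (lmFit, eBayes, two-sided), with a level per arm and either 1 IMQ effect (3 residual degrees of freedom) or 1 per genotype (2), and Benjamini-Hochberg adjustment over 22180 genes at 0.05. The fit was checked on simulated data. Genes of 4 further lists were named by the 4 largest absolute differences of each list. Genes called outside that rule were added after their values were seen. Tgm1, which was not called, was also named outside it, as a known GRHL3 target. Members and lists were chosen with earlier results of these data known. Promoters came from RefSeq, GRCm38.p6; those of Grhl1 and Cebpa were searched too and not printed, and Grhl2, Ovol1, Trp63 and Zfp750 were not analysed here. Some listed genes are not reported here, and counts are over the measured ones. Alternatives were a filter on dim genes, the mean of all probe sets, repeated quantile normalization, a trended robust prior, no arm levels, leaving out each array, and marker levels as covariates.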

Additional observations from a re-analysis of the deposited data

Results flagged for a closer look

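Grhl3 on KO_CTRL, at 9.333, stood apart from the other 3 arrays without IMQ, which lay between 8.79 and 8.85; KO_IMQ was likewise the highest IMQ array. Klf4 on WT_IMQ, at 9.598, stood below the 3 KO arrays with IMQ, which lay between 9.81 and 9.83. Trp63 on WT_IMQ, at 9.097, stood below the KO arrays with IMQ, which lay between 9.58 and 9.59. Each was found as a gap large for a group of 4 arrays (Dixon's ratio 0.881, 0.901 and 0.978, above its critical value), which chance gives in about 1 of 20 groups, and 18 groups were looked at. The groups hold arrays of both genotypes.

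Zfp750 was higher with IMQ in all 3 KO pairs and lower in the WT pair; the KO response minus the WT response was 0.3576 log2 units, and that difference did not pass in limma (SE 0.25, adjusted p = 0.983).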

How the results depend on the processing

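Over the 4 pairs 685 genes were called, and 1028 without dim genes. Leaving out 1 array, which removes its pair, gave 0 to 1307: 0 without a WT array (3093 genes with an unadjusted p under 0.05), 2 without an array of the KO B pair (3017 unadjusted), 260 without 1 of the KO plain pair and 1307 without 1 of the KO Allo pair. In limma 0 genes passed with the hair follicle, skeletal muscle or keratinocyte level as a covariate (897, 1432 and 1417 at an unadjusted p under 0.05). Over the KO pairs the count was 0, against 58 when arm levels were dropped, 50 with a trended robust prior and 0 to 299 with 1 array left out; in the WT pair it was 0, against 1 with a trended robust prior and 0 to 41 with 1 array left out. For the KO minus WT response all alternatives run gave 0.

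Leaving out either array of a pair gives the same fit, which makes 12 distinct alternatives. Over these Grhl3 kept its direction (1.07 to 1.52) and was called in 7, Klf4 kept its direction (0.46 to 0.79) and was called in 4, and Gata3 kept its direction (-0.95 to -0.00) and was called in 5. With a repeated quantile normalization Grhl3 measured 1.08 and Gata3 -0.84. With the muscle covariate Grhl3, Klf4 and Gata3 measured 1.12, 0.68 and -0.44. In the KO pairs Grhl3 was called with a trended robust prior (adjusted p = 0.0365) and without the KO Allo pair (adjusted p = 0.04998). Reversals concerned members that were not called: with the hair follicle covariate Grhl1 measured 0.89 and Trp63 0.61; with the muscle covariate Trp63 0.14 and Zfp750 -0.014; with the keratinocyte covariate Trp63 0.014 and Zfp750 -0.043. The KO minus WT response of Grhl2 was -0.043 after quantile normalization and -0.045 to 0.041 with 1 array left out, and that of Cebpa -5.5e-05 to 0.22. The cause was not tested. The tests are paired by arm; the labels give no replicate numbers for a further block.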
